A study of Mus with 6 samples.

Results

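The genes described here are 7 genes that mark the epithelial state of lens epithelial cells (LECs): the cadherin genes Cdh1 and Cdh2, the catenin gene Ctnnb1, the tight junction scaffold gene Tjp1, the connexin gene Gja1, the Eph receptor gene Epha2 and the water channel gene Aqp1. They were chosen by name and found by Ensembl identifier among the 55421 genes counted, and all 7 passed the low-count filter that left 16810 genes for testing. The RNAseq measured wildtype C57BL/6 mouse lens capsules with their attached LECs, with 3 libraries at 0 h post cataract surgery (PCS) and 3 at 6 h PCS, each from a pool of 5 capsules. The labels give an age of 2 months, while the methods of the study give an older range and both sexes. In both groups the fiber cell mass had been removed, directly before harvest at 0 h PCS. According to the series design, the first eye of a mouse was operated 6 h before the second and both capsules were harvested at the same time, so capsules at 0 h PCS came from mice already injured in the other eye. Which pools share mice is not given in the sources used here.

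The lens epithelium is a single cell layer that is held together by adherens, tight and gap junctions. In an adherens junction, the cadherins of neighbouring cells bind each other, and β-catenin links their tails through α-catenin to actin. Gap junctions, built from connexins, couple the cells for ions and small metabolites, and water channels move water through the avascular lens. EphA2 is a receptor tyrosine kinase that binds ephrin-A ligands on adjacent cells, and its mutation causes cataract in mice and humans. Loss of E-cadherin and gain of N-cadherin is a textbook sign of epithelial to mesenchymal transition in many epithelia, although LECs normally express both.

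Gene counts per library ran from 18039974 to 24701039 read pairs, and the members had between 1430 and 12426 read pairs in every library. Levels are given as CPM, the read pairs of a gene per fixed total of gene read pairs, with library sizes scaled by TMM, the trimmed mean method of edgeR. A differentially expressed gene (DEG) had to reach an adjusted p of 0.05 or less with more than a 2-fold change, and adjusted p-values and 95% intervals come from the edgeR quasi-likelihood test fitted over all tested genes. The labels do not say that the pools of a time point came from separate experiments, so the spread may be partly technical. Library 6 h replicate 1 stood apart in having the lowest share of its read pairs on genes, 33.6% against 39.5% to 41.2% in the other libraries. Of 9 lens epithelial marker genes that are not members, 5 could be named (Pax6, Foxe3, Sox2, Pitx3 and Meis1), and all 5 had mean levels above 1 CPM at both time points. Their summed level was 716 to 909 CPM at 0 h PCS and 543 to 749 CPM at 6 h PCS. Sox2 and Pitx3 were lower at 6 h PCS, with log2 fold changes of −0.70 and −0.86 (adjusted p = 0.0151 and 0.00777 by edgeR), while Pax6, Foxe3 and Meis1 had log2 fold changes of −0.51, 0.28 and 0.15 and did not pass (adjusted p = 0.156, 0.249 and 0.638 by edgeR), although Foxe3 had higher CPM in every 6 h library than in any 0 h library. On library size alone Sox2 and Pitx3 were at −1.02 and −1.16, past the fold limit, Pax6 at −0.85 (adjusted p = 0.0153 by edgeR), and Foxe3 and Meis1 at −0.03 and −0.17.

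Of the 7 genes, 1 was a DEG, against 5.35% of all tested genes, and this was Epha2, an upregulated DEG as were 4.53% of tested genes. It was also the one member with an adjusted p of at most 0.05 (edgeR), which 8.33% of tested genes had. Their log2 fold changes had a median of 0.24, and those of all tested genes one of −0.0030. In 2 of the 7, Epha2 and Tjp1, every 6 h library exceeded every 0 h library, as in 15.3% of tested genes, whereas the time points did not overlap in 30.6% of all tested genes. In the remaining 5 genes the time points overlapped. Because these are bulk samples, fewer cells of a type and less RNA per cell cannot be told apart.

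**Figure D1:**
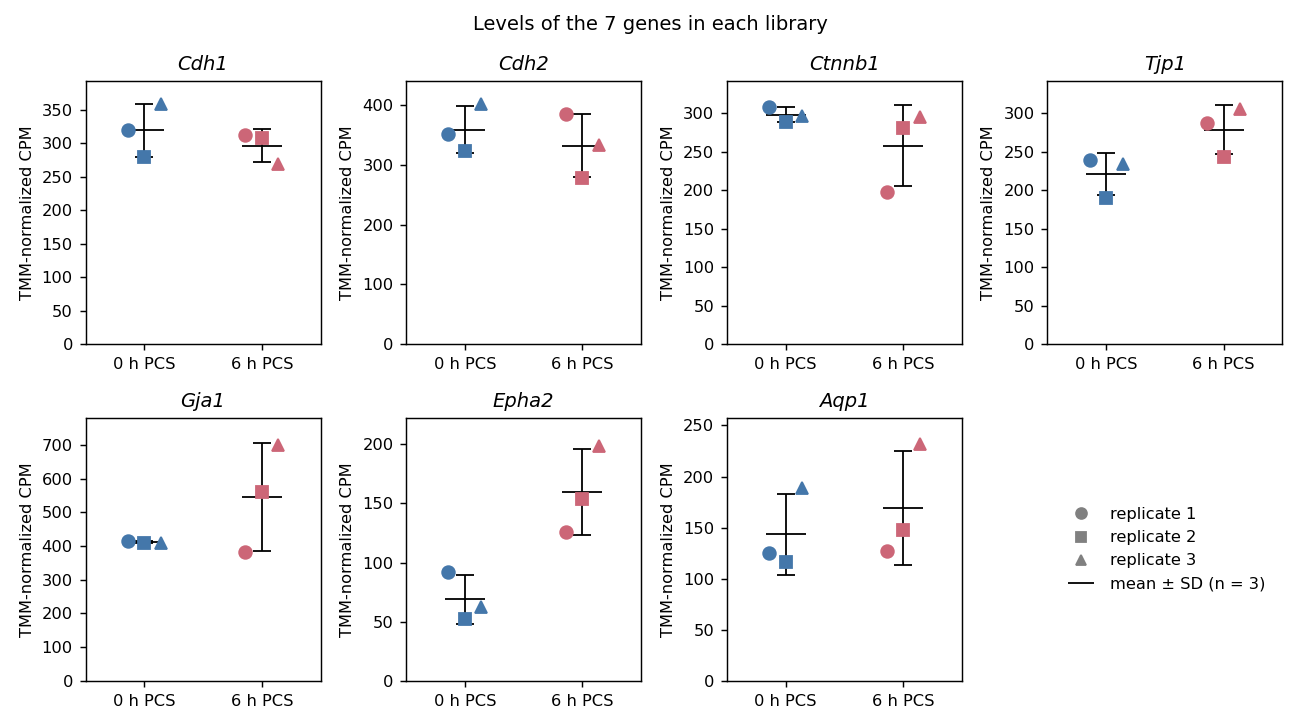
TMM-normalized CPM (y axis, from 0) of each gene at 0 h and 6 h PCS (x axis), with a symbol per library and the mean ± SD over 3 libraries. For Epha2 and Tjp1 every 6 h library exceeds every 0 h library, and Gja1 is tight at 0 h PCS and spread at 6 h PCS.

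Epha2 (ENSMUSG00000006445, chromosome 4 of GRCm38, 141301221 to 141329384) was at 91.8, 52.1 and 62.6 CPM in the 3 libraries at 0 h PCS and at 125.9, 154.1 and 198.4 CPM in the 6 h libraries. The lowest library at 6 h PCS was above the highest at 0 h PCS, 0 h replicate 1. The mean rose from 68.8 ± 20.6 to 159.4 ± 36.6 CPM (SD, n = 3), with a log2 fold change of 1.21 and a 95% interval from 0.68 to 1.74 (standard error 0.235, adjusted p = 0.0134 by edgeR). Its fold change exceeded that of 91.0% of the tested genes.

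Epha2 was the only member with an exon length at hand, 4674 bases, and on the FPKM scale, which divides the CPM of all gene counts by the exon length in kilobases, it was at 21.4, 12.4 and 15.3 in the 0 h libraries and at 22.2, 32.6 and 37.2 in the 6 h libraries. The gap between the time points on this scale, which has no TMM factor, was narrow, between 21.4 in 0 h replicate 1 and 22.2 in 6 h replicate 1. With each library left out in turn, Epha2 was a DEG in 5 of 6 fits with log2 fold changes from 1.02 to 1.47, and the exception was the fit without 0 h replicate 3 (adjusted p = 0.0551 by edgeR). Scaled on library size alone, its log2 fold change was 0.91 (adjusted p = 0.0296 by edgeR), under the fold limit.

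Cdh1 encodes E-cadherin, the main cadherin of epithelia (ENSMUSG00000000303, chromosome 8, 106603350 to 106670247). Its level was 319.1, 279.4 and 359.0 CPM in the 0 h libraries and 312.5, 308.1 and 268.5 CPM in the 6 h libraries. All 3 values at 6 h PCS were below the 2 higher values at 0 h PCS, and the time points overlapped. The log2 fold change was −0.11, with a 95% interval from −0.43 to 0.22 (adjusted p = 0.708 by edgeR), so the interval excludes a 2-fold change in either direction.

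Cdh2 encodes N-cadherin, the second classical cadherin of the lens (ENSMUSG00000024304, chromosome 18, 16588877 to 16809246). Its level was 350.6, 323.2 and 401.1 CPM in the 0 h libraries and 385.3, 278.5 and 332.4 CPM in the 6 h libraries, and its highest and lowest libraries at 6 h PCS lay on both sides of the 0 h mean. The log2 fold change was −0.11 as well, with a 95% interval from −0.46 to 0.25 (adjusted p = 0.729 by edgeR). Within each library the count of Cdh2 divided by that of Cdh1, which no scaling of libraries can alter, was 1.10, 1.16 and 1.12 in the 0 h libraries and 1.23, 0.904 and 1.24 in the 6 h libraries. The mean ratio was 1.12 ± 0.0296 and 1.12 ± 0.191 (SD, n = 3), so it was more spread at 6 h PCS with nearly the same mean. Without transcript lengths, the ratio does not say which transcript was more abundant.

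Ctnnb1 encodes β-catenin, which binds cadherin tails and also acts as a coactivator in Wnt signalling (ENSMUSG00000006932, chromosome 9, 120933400 to 120960507). Its level was 308.5, 289.1 and 296.0 CPM in the 0 h libraries and 197.5, 281.0 and 295.3 CPM in the 6 h libraries. The low value belonged to 6 h replicate 1, the library with the lowest share of read pairs on genes, and 6 h replicate 3 lay inside the range of the 0 h libraries. Its log2 fold change was −0.21, with a 95% interval from −0.58 to 0.16 (adjusted p = 0.503 by edgeR), and −0.05 without 6 h replicate 1.

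Tjp1 encodes ZO-1, the scaffold protein that ties claudins and occludin to actin (ENSMUSG00000030516, chromosome 7, 65296165 to 65527850). Its level was 239.1, 190.2 and 233.9 CPM in the 0 h libraries and 287.3, 243.4 and 305.1 CPM in the 6 h libraries. All 3 libraries at 6 h PCS were higher, but 6 h replicate 2 was above 0 h replicate 1 by only a few CPM. The log2 fold change was 0.33, with a 95% interval from −0.0019 to 0.67 (unadjusted p = 0.0511 and adjusted p = 0.219, both by edgeR), and it did not pass. Without the TMM factors the time points overlapped, and on library size alone the log2 fold change was 0.01. Relative to Cdh1 in the same library, Tjp1 counts were 0.749, 0.681 and 0.652 in the 0 h libraries and 0.919, 0.790 and 1.14 in the 6 h libraries, without overlap.

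Gja1 encodes connexin 43, the gap junction protein of the lens epithelium (ENSMUSG00000050953, chromosome 10, 56377300 to 56390419). Its level was 414.4, 409.2 and 409.8 CPM in the 0 h libraries and 380.7, 558.8 and 699.6 CPM in the 6 h libraries. The libraries at 0 h PCS were nearly equal, with a coefficient of variation of 0.686%, which was 29.2% at 6 h PCS. At 6 h PCS, replicate 1 was below and replicates 2 and 3 were above every library at 0 h PCS. The log2 fold change was 0.41, with a 95% interval from −0.04 to 0.86 (adjusted p = 0.260 by edgeR). Without 6 h replicate 1 it was 0.61 with an adjusted p of 0.0271 by edgeR, which passes the p limit and not the fold limit, and without 6 h replicate 3 it was 0.19.

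Aqp1 encodes aquaporin 1, the water channel of the lens epithelium, which is also present in erythrocytes, vascular endothelium and other ocular cells (ENSMUSG00000004655, chromosome 6, 55336299 to 55348555). Its level was 125.3, 116.5 and 189.0 CPM in the 0 h libraries and 127.6, 148.0 and 232.0 CPM in the 6 h libraries. Replicate 3 was the highest library at both time points, and the coefficient of variation was 27.6% at 0 h PCS and 32.7% at 6 h PCS. The log2 fold change was 0.24, with a 95% interval from −0.34 to 0.82 (adjusted p = 0.632 by edgeR), and it was −0.06 without 6 h replicate 3.

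**Figure D2:**
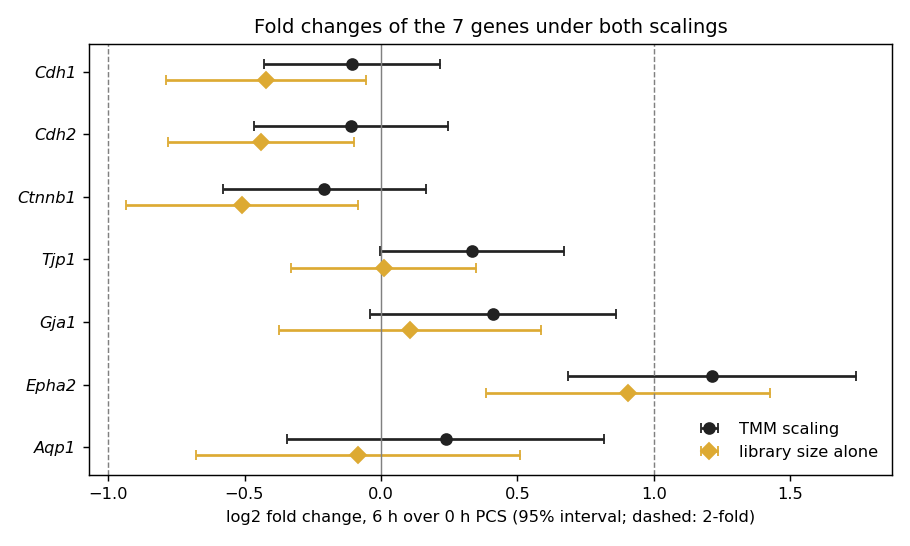
Log2 fold change of 6 h over 0 h PCS (x axis) with its 95% interval for each gene (y axis), on TMM scaling (black) and on library size alone (yellow); dashed lines mark a 2-fold change. Each gene sits about 0.3 further to the left on library size alone, and the Epha2 interval lies above 0 under both. The intervals of Cdh1, Cdh2 and Ctnnb1 include 0 on TMM scaling and lie below 0 on library size alone, where their adjusted p-values did not pass.

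The scaling moved the members together with all other genes. On library size alone the median log2 fold change of all tested genes was −0.32, and the members were then at −0.42 for Cdh1, −0.44 for Cdh2, −0.51 for Ctnnb1, 0.01 for Tjp1, 0.11 for Gja1, 0.91 for Epha2 and −0.08 for Aqp1. Of these, 1 passed the p limit, Epha2, and the adjusted p-values of Cdh2, Ctnnb1 and Cdh1 were 0.0744, 0.0934 and 0.103 by edgeR. Relative to the median of all genes, Epha2 was at 1.22 under both scalings, Tjp1 at 0.34 and 0.33, and Cdh1 at −0.10 under both.

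Relative to Cdh1 within a library, 2 of 6 ratios did not overlap between the time points, those of Epha2 and Tjp1. In CPM the same 2 genes did not overlap, nor did 30.6% of all tested genes. That share was not counted for ratios. Counts of Epha2 were 0.288, 0.186 and 0.174 of those of Cdh1 in the 0 h libraries and 0.403, 0.500 and 0.739 in the 6 h libraries. Every library at 6 h PCS had a higher share than every library at 0 h PCS, and the mean log2 ratio was higher by 1.33. In an exact permutation test of 3 against 3 libraries, which cannot give a two-sided p below 0.10, both the Epha2 and the Tjp1 ratio gave p = 0.10, or 0.30 adjusted over the 6 ratios. The ratios of Cdh2, Ctnnb1, Gja1 and Aqp1 to Cdh1 overlapped, with two-sided exact permutation p-values of 1, 0.80, 0.30 and 0.60, or 1, 0.96, 0.60 and 0.90 adjusted over the 6 ratios. For Gja1 the 6 h libraries had 1.22, 1.81 and 2.61 counts per count of Cdh1.

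**Figure D3:**
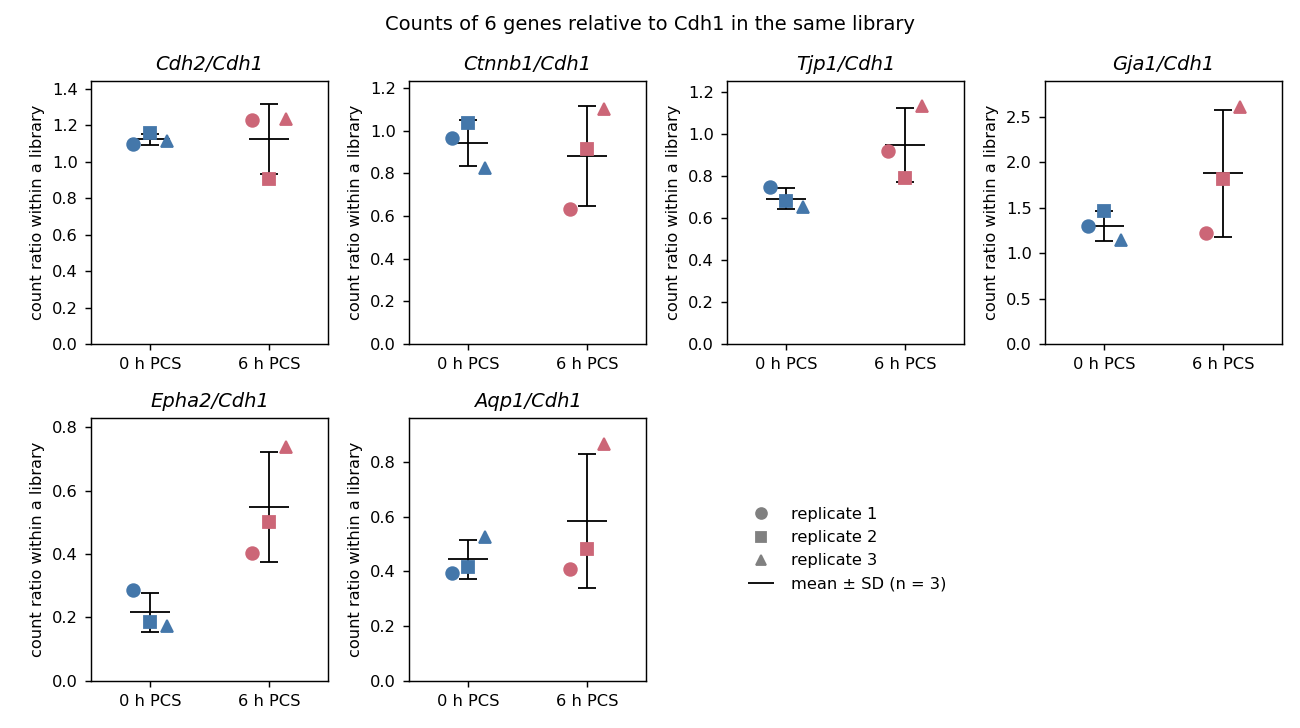
Count of each of 6 genes divided by the count of Cdh1 in the same library (y axis, from 0) at 0 h and 6 h PCS (x axis), with a symbol per library and the mean ± SD over 3 libraries. The Epha2 ratio is 0.174 to 0.288 in the 0 h libraries and 0.403 to 0.739 in the 6 h libraries, while the Cdh2 ratio stays near 1.12 on average.

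Markers of other cell types differed between the same libraries. Of the 9 pigment cell markers, 5 could be named (Tyr, Tyrp1, Dct, Pmel and Rlbp1), and their summed level was 219.6, 94.5 and 58.6 CPM in the 0 h libraries and 94.2, 487.3 and 1983 CPM in the 6 h libraries. At 6 h PCS this sum was highest in replicate 3 and lowest in replicate 1, as were Gja1, Aqp1, Epha2 and Ctnnb1. Tjp1 was also highest in 6 h replicate 3, while Cdh1 and Cdh2 were highest in 6 h replicate 1. At 0 h PCS the sum was highest in replicate 1, as were Gja1, Epha2, Ctnnb1 and Tjp1. It was lowest in 0 h replicate 3, where Aqp1, Cdh1 and Cdh2 were highest. Of the 5 pigment cell markers, 0 were DEGs by edgeR or DESeq2, with 0 unadjusted p-values below 0.05. The share of all tested genes at that unadjusted limit was not counted, so such counts, here and below, have no background beside them. Of the 10 corneal epithelial markers, 3 could be named (Krt12, Krt5 and Pkp1), and their summed level was 0.765 to 14.9 CPM in the 0 h libraries and 71.4 to 107 CPM in the 6 h libraries, although 0 of the 3 was a DEG by the quasi-likelihood test (3 had an unadjusted p below 0.05, 3 were DEGs by DESeq2 and 2 by the exact test of edgeR). EphA2 is also expressed in corneal epithelium, and these markers were higher in every library at 6 h PCS, as Epha2 was. Among the 6 h libraries, Krt12, Krt5 and the sum were lowest in replicate 3, where Epha2 was highest, while Pkp1 was lowest in replicate 1, where Epha2 was lowest too.

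Of the 8 erythrocyte markers, 5 could be named, all 5 were upregulated DEGs, and their summed level was 7.94 to 19.5 CPM in the 0 h libraries and 73.5 to 132.7 CPM in the 6 h libraries. Alas2 and Hbb-bs were DEGs in all 6 fits without one library, while Hba-a2, Hba-a1 and Hbb-bt, globin genes with near-identical copies, were DEGs in 5, 4 and 2 of them, and each library but 0 h replicate 2 ended at least 1 of these calls. Of the 10 vascular endothelial markers, 4 could be named, with summed levels of 4.10 to 26.3 CPM in the 0 h libraries and 20.0 to 36.9 CPM in the 6 h libraries, of which Kdr made up the most. Cdh5 and Pecam1, which encode endothelial adhesion molecules, had higher levels in every 6 h library than in any 0 h library, with means of 0.219 and 2.24 CPM for Cdh5 and of 0.791 and 3.13 CPM for Pecam1. By the quasi-likelihood test 0 of the 4 were DEGs (adjusted p = 0.0529 for Cdh5 and 0.0644 for Pecam1 by edgeR), 2 had an unadjusted p below 0.05, and 2 were DEGs by DESeq2 and by the exact test of edgeR. The 6 named of 10 leukocyte markers summed to 13.5 to 22.6 CPM and 16.8 to 32.3 CPM, and the 3 named of 6 corneal stroma and endothelium markers to 24.0 to 48.7 CPM and 20.0 to 33.2 CPM, at 0 h and 6 h PCS. Of the leukocyte markers 1 was a DEG, Cd68, a macrophage lysosomal protein gene, which rose from 1.03 ± 0.451 to 5.99 ± 2.92 CPM (SD, n = 3, adjusted p = 0.0129 by edgeR) and was a DEG in 4 of 6 fits without one library, not in those without 0 h replicate 1 or without 6 h replicate 3. The other 5 overlapped between the time points and did not pass, with log2 fold changes of 1.502 for Itgam, 1.29 for Ptprc, 0.10 for Adgre1, −0.11 for Csf1r and −0.16 for Lyz2. The stroma and endothelium markers held 0 DEGs by edgeR or DESeq2, with 1 unadjusted p below 0.05. Lens fiber markers, of which 3 of 17 could be named, summed to 1472 to 1934 CPM and 1190 to 1866 CPM, with 0 DEGs by edgeR or DESeq2 and 0 unadjusted p-values below 0.05. No named marker of these lists was without counts in all libraries of a time point. The part of other cells in the levels of the members was not tested.

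**Figure D4:**
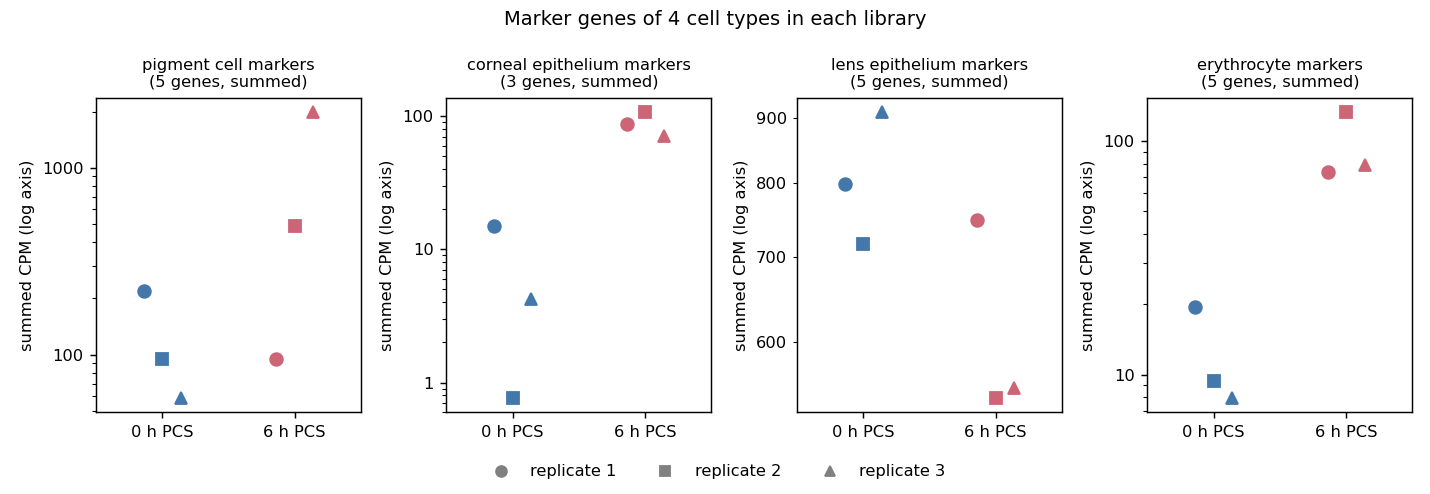
Summed CPM (y axis, log scale) of the named marker genes of pigment cells, corneal epithelium, lens epithelium and erythrocytes at 0 h and 6 h PCS (x axis), with a symbol per library. Pigment cell markers reach 1983 CPM in 6 h replicate 3, and corneal epithelial and erythrocyte markers are higher in every library at 6 h PCS.

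Genes with related roles were taken from lists of 135 genes in all, of which 60 could be named and tested. Names came from tables of the study that lean towards changed genes, so their calls are set against the 6376 named tested genes, of which 13.7% were DEGs (11.6% upregulated and 2.1% downregulated). Of the 60 genes, 10 were upregulated DEGs and 1 was a downregulated DEG, and their median log2 fold change was 0.37, against 0.19 over all named tested genes. The number of DEGs among the 60 depended on single libraries, with 5 without 0 h replicate 1, 4 without 0 h replicate 3, 6 without 6 h replicate 2 and 5 without 6 h replicate 3. Of the 11 DEGs, 4 were DEGs in all 6 fits without one library, among them Vcl, Dsp and Apc.

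In the adherens junction list 1 of the 8 tested genes was a DEG, Vcl, which encodes the actin linker vinculin. Its level rose from 117 ± 7.89 to 433 ± 107 CPM (SD, n = 3), with a log2 fold change of 1.89 (adjusted p = 0.000411 by edgeR). The most abundant others by counts were Nectin3, which encodes a nectin adhesion molecule, and Ctnna1, which encodes α-catenin. Nectin3 had a log2 fold change of 0.04 with a 95% interval from −0.24 to 0.32, and Ctnna1 one of 0.21 with an interval from −0.12 to 0.53. As for Cdh1 and Cdh2, both intervals exclude a 2-fold change.

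Among 14 tested tight junction genes, 4 were upregulated DEGs and 0 were downregulated. Pard6b, which encodes a PAR6 polarity protein, rose from 10.3 ± 3.24 to 29.1 ± 11.1 CPM (SD, n = 3), and the call was lost when 0 h replicate 2 or 0 h replicate 3 was left out. Cldn1 and Cldn4, which encode claudins, rose from 9.57 ± 3.13 to 28.7 ± 12.6 CPM and from 0.129 ± 0.114 to 1.82 ± 0.290 CPM (SD, n = 3). Cldn1 was a DEG in 1 of 6 fits without one library, the fit without 6 h replicate 1, and Cldn4 in 0 of 6. Cgnl1, which encodes the junction protein paracingulin and had the most counts of the list, was at 309 ± 11.8 and 294 ± 11.6 CPM (SD, n = 3). Magi3, which encodes a junction scaffold, rose by a log2 fold change of 0.80 (adjusted p = 0.0134 by edgeR), under the fold limit.

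In the desmosome list 1 of 8 tested genes was a DEG. Dsp, which encodes desmoplakin, was at 2.67, 1.35 and 3.32 CPM in the 0 h libraries and at 26.9, 35.0 and 21.5 CPM in the 6 h libraries, a log2 fold change of 3.51 ± 0.343 (estimate ± standard error, adjusted p = 0.000411 by edgeR). Every library at 6 h PCS was several times above those at 0 h PCS, as was the summed level of the corneal epithelial markers. Desmoplakin is abundant in corneal epithelium, and the part of corneal cells was not tested. The genes Pkp4, Evpl and Perp had more counts, with log2 fold changes of 0.15, 0.58 and 0.76, and did not pass (adjusted p = 0.601, 0.114 and 0.0796 by edgeR).

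Besides Gja1, 8 genes of the connexin and pannexin list were tested, of which 2 were upregulated and 1 was a downregulated DEG. Gjc1, which encodes connexin 45, rose from 4.90 ± 1.86 to 11.8 ± 2.22 CPM and the pannexin gene Panx1 from 1.29 ± 0.231 to 4.67 ± 1.55 CPM (SD, n = 3). Gjc1 was a DEG in 1 of the 6 fits without one library, and Panx1 in 2. Gjb6, which encodes connexin 30, had 0.831 ± 0.543 CPM at 0 h PCS (SD, n = 3) and no count in any 6 h library, so it was at least 4.82-fold lower when each library at 6 h PCS is set to 3 counts. It was a DEG in 0 of 6 fits without one library and not in DESeq2. Gjd2 was at 3.22 ± 3.25 and 2.97 ± 1.77 CPM (SD, n = 3).

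Of the 7 other Eph receptor genes tested, 0 were DEGs by edgeR or DESeq2, and 4 had an unadjusted p below 0.05. Without a background share at that limit, the 4 are not read as a result about the family. Epha5, the next by counts, was at 30.8 ± 2.88 CPM in the 0 h libraries and 40.5 ± 2.67 CPM in the 6 h libraries (SD, n = 3), with a log2 fold change of 0.40 and an interval from 0.07 to 0.72 (adjusted p = 0.138 by edgeR). Epha4 was at 10.4 ± 5.18 and 20.7 ± 6.15 CPM and Ephb6 at 14.2 ± 1.63 and 9.96 ± 1.16 CPM (SD, n = 3), with adjusted p-values of 0.132 and 0.175 by edgeR. Of the ephrin ligand genes, 3 of 8 were tested and 0 were DEGs by edgeR or DESeq2, with 1 unadjusted p below 0.05. Efna5, which encodes the ligand ephrin-A5 of EphA2 and is itself required for a clear lens in some mouse strains, was at 63.8, 66.1 and 69.0 CPM in the 0 h libraries and at 59.8, 58.4 and 56.0 CPM in the 6 h libraries. All 3 libraries at 6 h PCS were lower, opposite to Epha2, but the log2 fold change of −0.19 did not pass (adjusted p = 0.397 by edgeR). Efnb1 had a log2 fold change of 0.38 (adjusted p = 0.211 by edgeR), and Efna3 was at 1.04 ± 0.364 and 0.389 ± 0.348 CPM (SD, n = 3).

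Of the other aquaporin genes, 3 of 11 were tested. Aqp4 was at 150 ± 7.33 CPM in the 0 h libraries and 124 ± 12.2 CPM in the 6 h libraries (SD, n = 3), with all libraries at 6 h PCS lower, a log2 fold change of −0.28 (adjusted p = 0.244 by edgeR). Aqp3, a water and glycerol channel that corneal epithelium also expresses, rose from 0.183 ± 0.103 to 2.56 ± 1.76 CPM (SD, n = 3; adjusted p = 0.0251 by edgeR) and was a DEG in 2 of 6 fits without one library. Aqp11 was at 2.36 ± 0.415 and 2.15 ± 0.781 CPM (SD, n = 3). Of the sodium pump genes, 2 of 6 were tested and 0 were DEGs by edgeR or DESeq2, with 0 unadjusted p-values below 0.05. Atp1b2, which encodes a beta subunit of the pump, had a log2 fold change of 0.58 (adjusted p = 0.543 by edgeR).

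**Figure D5:**
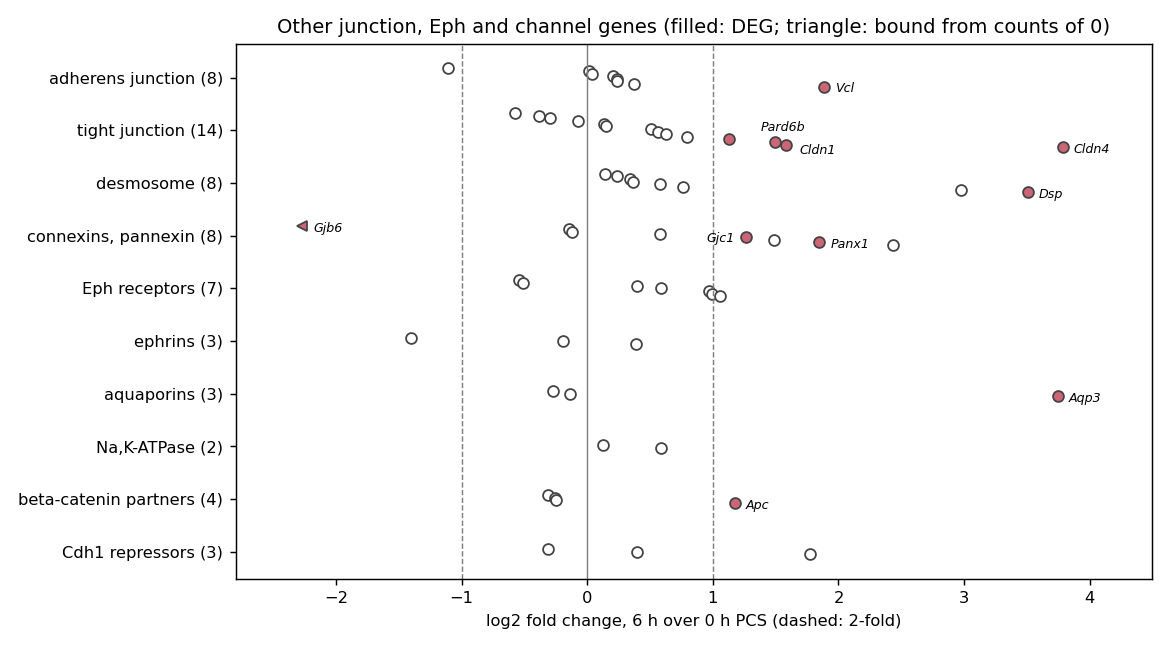
Log2 fold change of 6 h over 0 h PCS (x axis) of the named and tested genes of 10 lists (y axis, number of genes in brackets), with filled symbols for DEGs, not all of them labelled, and dashed lines at a 2-fold change. The triangle for Gjb6 is a bound, since it had no count at 6 h PCS; 10 filled symbols lie to the right and 1 to the left.

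Among the partners of β-catenin 1 of 4 tested genes was a DEG. Apc, which encodes the scaffold of the β-catenin destruction complex, was at 208, 203 and 248 CPM in the 0 h libraries and at 540, 460 and 487 CPM in the 6 h libraries, a log2 fold change of 1.17 ± 0.142 (estimate ± standard error, adjusted p = 0.00118 by edgeR). It was a DEG in all 6 fits without one library, but on library size alone its log2 fold change was 0.85, under the fold limit. Tcf7l1 and Bcl9l, which encode nuclear partners of β-catenin, had log2 fold changes of −0.26 and −0.25 (adjusted p = 0.323 and 0.516 by edgeR). Of the genes for repressors of Cdh1, 3 of 7 were tested and 0 were DEGs by edgeR or DESeq2, with 2 unadjusted p-values below 0.05. Zeb2 was at 216 ± 10.6 and 285 ± 20.2 CPM (SD, n = 3), with a log2 fold change of 0.40 and an interval from 0.11 to 0.68 (adjusted p = 0.0922 by edgeR). Snai1 and Snai2 were low, at 0.547 ± 0.304 and 1.88 ± 1.54 CPM in the 0 h libraries and at 1.88 ± 0.351 and 1.496 ± 0.992 CPM in the 6 h libraries (SD, n = 3).

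Likeness of pattern was taken as the Pearson correlation of log2 CPM over the 6 libraries with 3487 named genes whose mean over all 6 libraries was at least 10 CPM, so a gene could enter through its level at 1 time point. It is a description over 3 libraries of each time point, which the genes share. For Epha2 the most alike were Egr2 (r = 0.997), Mdm2 (0.996) and Fam43a (0.995), of which Egr2 and Fam43a had means below that minimum at 0 h PCS (2.72 and 9.25 CPM) and entered through the 6 h libraries (20.7 and 16.2 CPM). For Gja1 they were Gm44250 (0.995), Retreg1 (0.991) and Ociad2 (0.986). Cdh1 was most like Chfr (0.989), Setd1a (0.959) and Abi3bp (0.953), and Cdh2 most like Dcp1a (0.986), Notch2 (0.966) and Acvr1b (0.962). For Ctnnb1 they were Rcbtb2 (0.990), Anxa1 (0.978) and Psma2 (0.969), for Tjp1 Utrn (0.987), Ppfibp1 (0.984) and Ccnyl1 (0.982), and for Aqp1 Mgat4b (0.972), Tnfaip8 (0.956) and Surf4 (0.930). No gene appeared in the lists of 2 members.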

How the data were processed

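The authors aligned read pairs to mouse GRCm38 with HISAT2 and used the union mode of HTSeq to assign them to Ensembl genes. The deposited values are raw counts, with 5 summary rows per library that were left out here (58.8% to 66.4% of read pairs). The strand setting is not given in the sources used here. The counts were tested with edgeR 4.0.16 in R 4.3.3 as in the study's methods: TMM scaling, the filter on low counts by group, robust dispersions and the quasi-likelihood test of the earlier edgeR version, with Benjamini-Hochberg adjustment. Standard errors are the log2 fold change divided by the square root of F. Exact permutation tests used scipy 1.17.1. Tables of the study paired 7023 identifiers with symbols, including 3 of the 7 members. The identifiers of the members were set by the rule that chose them. One exon length of a member was at hand, so levels were not ranked between members. Positions are from RefSeq for GRCm38.p6, where Ctnnb1 overlaps the microRNA gene Mir7090 and no other member overlaps a gene.

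On simulated data for this comparison of 16810 genes, 80 of 100 genes changed by a log2 fold change of 1.5 and 97 of 100 changed by 3 were called, with 17 calls outside them. The changed genes were drawn only from those above a minimum mean CPM, and every member had a log2 fold change below 1.5. These rates therefore do not cover changes as small as those of the members, or genes with low counts. The members and lists were chosen with earlier results of these data known. Named were the members, the DEGs of each list, its 3 genes with the highest mean CPM, and the 3 genes most alike to each member. Some genes that this rule names are not reported here, although the counts include them. The other settings were DESeq2 1.42.0, the exact test of edgeR, the method of edgeR 4, no robust estimation, library size or DESeq2 size factors as scaling, a test against a fold change of 2, no filter, a minimum of 10 counts in each of the samples, a replicate block, FPKM with TMM effective library sizes and the omission of single libraries. Exon lengths came from a table of the study. Upper quartile scaling and scaling without the 10 most abundant genes were added after seeing the data.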

Additional observations from a re-analysis of the deposited data

How the results depend on the processing

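Of 126 member fold changes recomputed under 18 settings, 121 kept their direction and call. Epha2 was no longer a DEG on library size alone (log2 fold change 0.91), in the test against a fold change of 2 (1.21, with no member called) and without 0 h replicate 3, and the log2 fold change of Aqp1 reversed on library size alone, to -0.084, and without 6 h replicate 3, to -0.059 (-0.059 to 0.48 over the fits without one library). The number of member DEGs was 0 instead of 1 under those 3 settings and 0 to 1 without one library. Members with an adjusted p of at most 0.05 numbered 0 in the test against a fold change of 2 and 0 to 2 without one library, where the second was Gja1 without 6 h replicate 1. The DEGs among the 60 other genes numbered 11, and 2 in the test against a fold change of 2, 7 with scaling without the 10 most abundant genes, and 4 to 8 without one library. On library size alone 6 were upregulated and 2 downregulated. The cause was not tested. Over all genes, 900 DEGs became 221 in the test against a fold change of 2 and 553 without 0 h replicate 1. With library size alone 572 were upregulated and 627 downregulated, against 762 and 138 with TMM.

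Same-numbered libraries did not deviate together at every number, with correlations of 0.0037, 0.223 and 0.139, so the number is not taken as a pairing. Libraries of different numbers had correlations from -0.191 to 0.023, so at numbers 2 and 3 the same-numbered libraries were the most alike. Whether those pools share mice was not tested. With the replicate block there was still 1 member DEG, Epha2, at a log2 fold change of 1.23, and 10 list DEGs. The FPKM of Epha2 on TMM effective library sizes was 14.7 at 0 h PCS and 34.1 at 6 h PCS, against 16.4 and 30.7.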
